A study of Mus musculus with 10 samples.

Results

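Tetraspanins are small proteins that cross the membrane several times and gather integrins, immunoglobulin-superfamily proteins, proteases and signalling receptors into microdomains. Several of them sort cargo into endosomes, lysosomes and extracellular vesicles, and microglia, the resident macrophages of the brain, carry members known from leukocytes beside ones found in most tissues. The 10 genes described here are Cd9, Cd37, Cd53, Cd63, Cd81, Cd82, Cd151, Tspan3, Tspan4 and Tspan14. They were chosen by symbol as tetraspanins of microglia and found by their NCBI gene number among the 46152 genes counted. All 10 had counts in every library and passed the filter of more than 1 CPM, a count relative to its library's total, in 3 or more libraries, which 28419 genes passed.

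The study asked how GW2580, an inhibitor of the kinase activity of the CSF1 receptor on which microglia depend, changes these cells in healthy mice. C57BL/6J mice, by the study's methods 8 to 12 weeks old, were gavaged for 8 days with GW2580 at 80 mg/kg/d or with its vehicle, Tween 80 and hydroxymethyl propyl-cellulose, and the labels name no transgene or deletion in either group. Brain cells were enriched on Percoll and by magnetic selection for CD11b, which monocytes and granulocytes also carry, and 1 RNA library was made for each of 5 mice per group, 2 male and 3 female. Libraries are named by group and replicate number, as Vehicle 1 or GW2580 4.

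Between 12550418 and 20854218 fragments were assigned to genes with vehicle and between 13228819 and 26079343 with GW2580. The 9 microglia markers summed to 12090 to 27565 CPM with vehicle and 17038 to 56236 CPM with GW2580. Endothelial markers (6 genes, led by Pecam1) summed to 48.1 to 85.1 CPM with vehicle and 70.0 to 89.5 CPM with GW2580. Of these 6, Cldn5 alone was at 0 in all libraries. Oligodendrocyte markers (8 genes, led by Mbp) ranged from 163 to 17906 CPM with vehicle, highest in Vehicle 2 and next in Vehicle 5 at 4358, and from 178 to 1779 CPM with GW2580. Monocyte and granulocyte markers (6 genes, led by S100a9) reached 12930 CPM in Vehicle 1 and lay between 161 and 3614 CPM with GW2580. Astrocyte markers (6 genes) were highest in Vehicle 5 at 938 CPM, and lymphocyte markers (6 genes) also, at 288 CPM. Neuron and border macrophage markers each summed to at most 375 CPM in any library. On the first principal component, Vehicle 5 at 77.9 lay beyond the other GW2580 libraries (-5.20 to 46.4) and GW2580 5 at -45.8 beyond the other vehicle libraries (-40.5 to -35.0), each away from its own treatment, and results that rest on them are given with and without them. In these samples a lower value may mean fewer cells of a type or less RNA per cell, which cannot be told apart.

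Stretches of DNA around the annotated starts are shown for 4 members: Cd63, which differed most between the groups; Tspan14, which had the highest fold change; and Cd37 and Cd53, the members best known as leukocyte genes. Each is the RefSeq window (GRCm38.p6) from 250 bases before to 50 after a start, 5′ to 3′ along the gene. All 10 members matched such a window, 16 windows in all. Capitals mark an E-box (CACGTG, the letters bound by the MITF and TFE factors of lysosomal genes), a GC box (GGGCGG or, on the other strand, CCGCCC) or the core of an ETS site (GGAAGT or ACTTCC, the letters of myeloid ETS factors such as PU.1), and no base of the 16 windows lay in more than 1 kind of motif. Cd63 is from chr10:128909095-128909394, plus strand, Tspan14 from chr14:40966847-40967146, minus strand, Cd37 from chr7:45238790-45239089, minus strand, and Cd53 from chr3:106790100-106790399, minus strand.
Cd63: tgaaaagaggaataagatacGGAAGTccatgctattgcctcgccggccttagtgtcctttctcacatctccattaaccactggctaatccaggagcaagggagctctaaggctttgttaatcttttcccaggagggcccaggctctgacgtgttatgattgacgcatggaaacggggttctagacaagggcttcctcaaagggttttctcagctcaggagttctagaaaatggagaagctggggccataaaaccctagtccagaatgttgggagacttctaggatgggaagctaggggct
Tspan14: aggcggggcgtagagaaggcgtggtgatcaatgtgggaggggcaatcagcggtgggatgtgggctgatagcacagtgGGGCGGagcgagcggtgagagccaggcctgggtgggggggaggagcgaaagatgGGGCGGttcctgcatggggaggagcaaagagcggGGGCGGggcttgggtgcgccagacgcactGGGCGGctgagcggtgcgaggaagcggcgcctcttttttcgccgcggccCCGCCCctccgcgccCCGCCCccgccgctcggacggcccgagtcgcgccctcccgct
Cd37: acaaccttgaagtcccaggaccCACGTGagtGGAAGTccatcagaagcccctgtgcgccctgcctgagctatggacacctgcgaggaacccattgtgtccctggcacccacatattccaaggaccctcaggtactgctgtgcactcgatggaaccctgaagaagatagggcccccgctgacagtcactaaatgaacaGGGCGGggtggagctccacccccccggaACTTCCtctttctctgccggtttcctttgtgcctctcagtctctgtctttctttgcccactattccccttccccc
Cd53: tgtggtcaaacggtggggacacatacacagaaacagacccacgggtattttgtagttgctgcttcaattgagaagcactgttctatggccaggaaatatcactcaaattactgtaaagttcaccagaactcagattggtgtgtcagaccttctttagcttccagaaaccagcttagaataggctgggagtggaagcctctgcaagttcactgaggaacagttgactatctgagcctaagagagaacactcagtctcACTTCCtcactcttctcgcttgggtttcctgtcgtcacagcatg
The windows of Cd63 and Cd53 each held 1 ETS core and no GC box, and that of Cd37 held 1 E-box, 1 GC box and 2 ETS cores. The Cd63 window lies inside the gene, whose span on the plus strand begins at 128896231, so it does not cover that outer end. That of Cd37, on the minus strand, likewise lies within a span ending at 45239340. The Tspan14 window shown held 6 GC boxes and was 72.3% G and C, against 46.3% for Cd53 and 49.3% for Cd63. A second Tspan14 window, at chr14:40948160-40948459 on the minus strand, was 49% G and C and held no GC box and 1 ETS core. An ETS core was found in 6 of the members' 16 windows, a GC box in 8 and an E-box in 2, those of Cd37 and Tspan4. Of all 32851 windows in the RefSeq table, 23.77% held an ETS core, 35.66% a GC box and 7.15% an E-box. A match is a run of letters and was not tested as a binding site.

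Cd81 and Cd9 were the most abundant members. To compare genes with each other, counts were divided by exon length and scaled to the same total in each library (TPM). Cd81, which pairs with CD9 and with the immunoglobulin-superfamily protein IGSF8, stood at 2924 ± 618 TPM with vehicle (SD, n = 5) and was the highest member in all 5 vehicle libraries. It ranked 33 among the 46152 genes by mean TPM. Cd9, a tetraspanin of cell fusion and of vesicles, followed at 2176 ± 717 TPM (rank 49), and Cd63, the tetraspanin of late endosomes and lysosomes, at 1202 ± 227 TPM (rank 79).

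The leukocyte tetraspanins Cd53 and Cd37 came next at 497 ± 140 and 492 ± 130 TPM with vehicle. They did not differ beyond their spread, and Cd53 was above Cd37 in 3 of 5 libraries. Tspan3, known as a partner of the myelin protein claudin-11, was at 375 ± 346 TPM and ranged from 151 to 982 TPM. Cd82, which restrains integrin-driven migration, was at 205 ± 105 TPM. Tspan14, which escorts the protease ADAM10 to the cell surface, and Tspan4, a protein of migrasomes, were close to each other at 138 ± 37.4 and 122 ± 38.3 TPM. Cd151, the partner of laminin-binding integrins, was far below at 9.56 ± 2.72 TPM (rank 8233), and Tspan4 was 12.8 times as high.

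With GW2580 the top and the bottom of this order were as with vehicle, and the middle was not. Cd81 (3508 ± 790 TPM) and Cd9 (2055 ± 496 TPM) led in all 5 libraries, and Cd151 was last at 13.5 ± 4.10 TPM. Cd63, at 583 ± 250 TPM in the mean, stood below Cd53 at 686 ± 170 TPM, with Cd53 above Cd63 in 3 of 5 libraries. Cd37 followed in the mean at 540 ± 127 TPM, though Cd63 was above Cd37 in only 2 of 5 libraries. Tspan14, at 326 ± 147 TPM, stood above Tspan3 (237 ± 60.9 TPM) in 3 of 5 libraries, and Cd82 (216 ± 60.6 TPM) and Tspan4 (124 ± 41.1 TPM) followed. The summed TPM of the 10 members was 8141 ± 1340 with vehicle and 8289 ± 1579 with GW2580.

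To compare the groups gene by gene, counts were scaled to CPM with TMM factors (the trimmed mean of M-values) and the treatment effect was tested by the quasi-likelihood method of edgeR. A gene was called, by the study's thresholds, at a fold change over 2 with an unadjusted p under 0.05. By this rule 1 of the 10 members was called, Cd63, which was lower with GW2580, and none was called higher. Of all genes tested, 10.7% were called, 6.7% lower and 4.01% higher, so the members' share was near that of all genes. After Benjamini-Hochberg adjustment no gene passed 0.05 (0.0% of 28419, smallest adjusted p = 0.280, 4186 genes with an unadjusted p under 0.05), although DESeq2 called 177 genes at that threshold and edgeR's exact test 22. The members' log2 fold changes (GW2580 over vehicle) ran from -1.34 to 0.84 with a median of -0.22, against a median of -0.03 for all genes, and 3 were above 0 and 7 below.

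**Figure D1:**
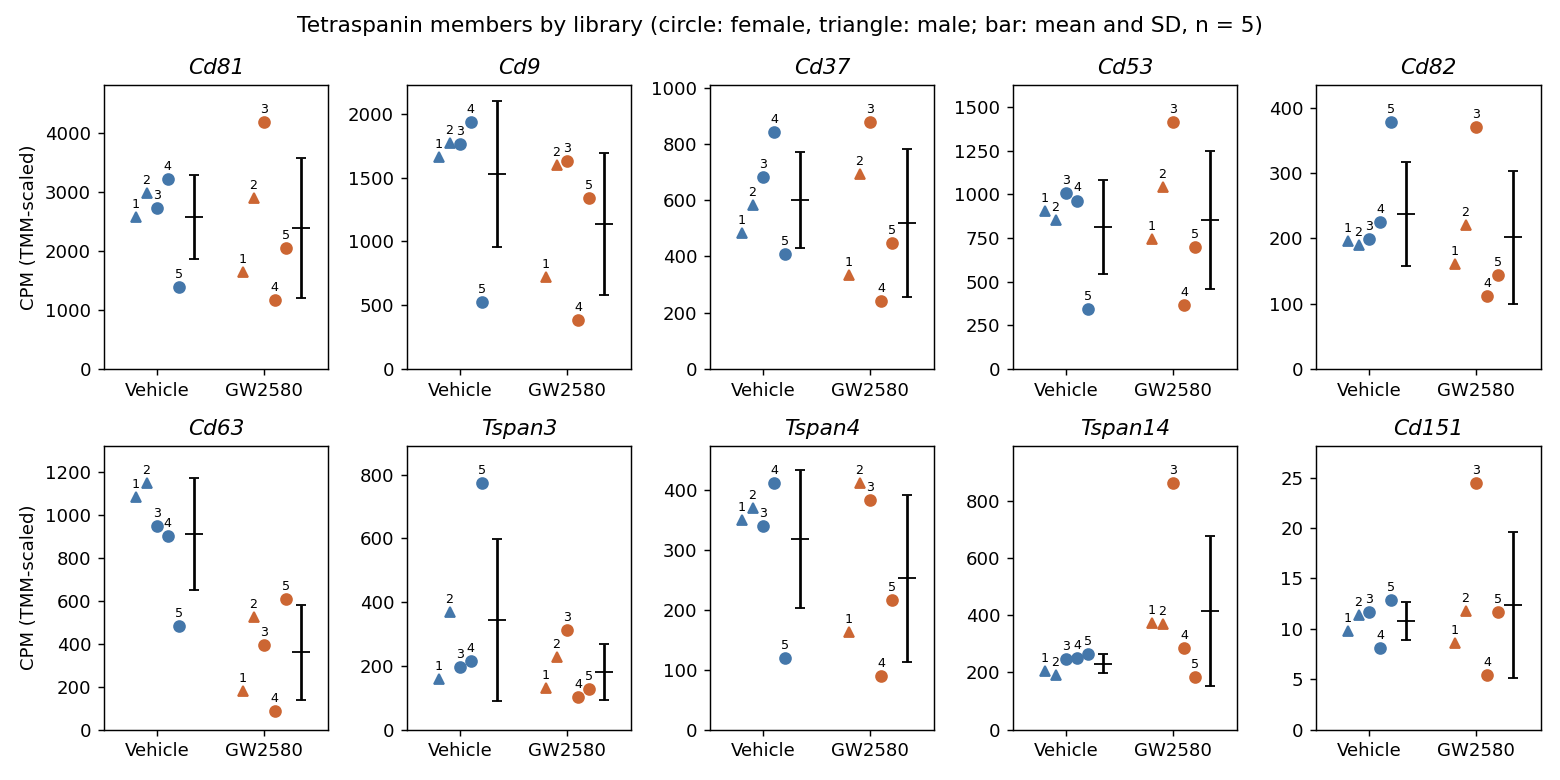
TMM-scaled CPM (vertical axis, each panel from 0 on its own scale) of the 10 members in the 5 vehicle (blue) and 5 GW2580 (orange) libraries, numbered by replicate, with circles for female and triangles for male mice and the mean and SD beside each group. Cd63 lay between 483 and 1150 CPM with vehicle and between 88.8 and 608 CPM with GW2580, and Tspan14 lay above every vehicle library in 4 of 5 GW2580 libraries.

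Cd63 read 1082, 1150, 947, 903 and 483 CPM in Vehicle 1 to 5 and 182, 523, 396, 88.8 and 608 CPM in GW2580 1 to 5. GW2580 1, 3 and 4 lay below every vehicle library, while Vehicle 5 lay below GW2580 2 and 5, so the groups overlapped. The log2 fold change was -1.34 ± 0.50 (SE), a fold of 0.394 (unadjusted p = 0.0177, adjusted p = 0.280, edgeR). The exact permutation test, two-sided, gave p = 0.0238. Cd63 (NCBI gene 12512) spans chromosome 10 from 128896231 to 128912822 in GRCm38. None of the 10 members had groups that did not overlap, and 3.03% of all genes tested had such groups.

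Without Vehicle 5 and GW2580 5, the Cd63 values left spanned 903 to 1150 CPM with vehicle and 88.8 to 523 CPM with GW2580. Its log2 fold change was then -1.88 with an adjusted p of 0.0244 by edgeR, where 17.8% of all genes tested had an adjusted p under 0.05 and no other member had one (Tspan14, adjusted p = 0.0903). These libraries were known to lie apart from earlier results of the same data, so this value is a description. In the 2 male mice per group alone the log2 fold change of Cd63 was -1.76 (unadjusted p = 0.0169), and in the 3 female mice per group, which include both libraries, it was -1.07 and no longer called (unadjusted p = 0.210). The male effect minus the female effect was -0.57 ± 1.12 (SE), under its error. By edgeR, no member's interaction of sex and treatment had an unadjusted p under 0.05, where 717 of 28419 genes had one and none passed adjustment.

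The level of Cd63 moved with other measures of the libraries. The mean log2 CPM of 79 cytosolic ribosomal protein genes was 6.38, 6.27, 6.15, 5.96 and 4.98 in Vehicle 1 to 5 and 3.90, 5.15, 4.89, 3.37 and 6.77 in GW2580 1 to 5. The lowest Cd63 and the lowest ribosomal mean were both in GW2580 4, and the highest of each among the GW2580 libraries were both in GW2580 5. GW2580 4 held the lowest CPM of the group for 9 of the 10 members, and GW2580 5 the highest for Cd63 alone. Monocyte and granulocyte markers summed to 12930, 2590, 1285, 942 and 184 CPM in Vehicle 1 to 5 and to 788, 2906, 161, 172 and 3614 CPM in GW2580 1 to 5. They were lowest of the vehicle group in Vehicle 5, as was Cd63, and highest of the GW2580 group in replicates 5 and 2, as was Cd63, and their part in the result was not tested. With the ribosomal mean as a covariate, a model added after seeing the data, the log2 fold change of Cd63 was -0.59 and was not called (unadjusted p = 0.164 by edgeR). That mean also differed between the groups, at 5.96 to 6.38 in Vehicle 1 to 4 and 3.37 to 5.15 in GW2580 1 to 4. Vehicle 5 (4.98) and GW2580 5 (6.77) went the other way, and the model cannot fully tell covariate and treatment apart. Fragments on no annotated exon made up 60.1% of counting records in GW2580 4 and 56.1% in GW2580 1, the libraries of lowest Cd63, and 38.4 to 51.5% in the others. With the share of uniquely aligned fragments on no exon as a covariate, Cd63 was still called, at -1.23 (unadjusted p = 0.0330).

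Tspan14 (NCBI gene 52588, chromosome 14 from 40906427 to 40967073) read 203, 190, 247, 250 and 266 CPM in Vehicle 1 to 5. With GW2580 it read 374, 368, 863, 284 and 185 CPM in replicates 1 to 5. The vehicle libraries were tight, 4 of 5 GW2580 libraries lay above all of them, and GW2580 5 lay below all of them. The log2 fold change was 0.84 ± 0.41 (SE), which passed neither threshold (unadjusted p = 0.0570 by edgeR, exact permutation p = 0.0794). It was 0.39 without GW2580 3, and it passed both thresholds, at 1.02 (unadjusted p = 0.00771), only with the share of fragments on no exon as a covariate.

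Tspan3 (NCBI gene 56434, chromosome 9 from 56135884 to 56161070) read 160, 370, 197, 214 and 774 CPM in Vehicle 1 to 5 and 131, 228, 312, 101 and 129 CPM in GW2580 1 to 5. Vehicle 5 and Vehicle 2, the highest libraries of its group, were also the 2 libraries highest in oligodendrocyte and astrocyte markers. The part of these cells in the level of Tspan3 was not tested. The log2 fold change was -0.93 ± 0.49 (SE, unadjusted p = 0.0780 by edgeR, exact permutation p = 0.151). With a covariate averaging the markers of astrocytes, oligodendrocytes and neurons it was -0.38 (unadjusted p = 0.433). It was -0.39 without Vehicle 5 and -0.09 without Vehicle 2 and Vehicle 5, while it passed both thresholds without Vehicle 1 (-1.11, unadjusted p = 0.0451) and without GW2580 3 (-1.22, unadjusted p = 0.0306).

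Cd9 (NCBI gene 12527, chromosome 6 from 125460266 to 125494760) read 1662, 1771, 1763, 1938 and 523 CPM in Vehicle 1 to 5. With GW2580 it read 723, 1601, 1632, 380 and 1343 CPM. Apart from Vehicle 5 the vehicle libraries lay together, and the GW2580 libraries spread from 380 to 1632 CPM, all below Vehicle 1 to 4. The log2 fold change was -0.43 ± 0.49 (SE), which is under its error (unadjusted p = 0.394 by edgeR, exact permutation p = 0.349). It was -0.82 without Vehicle 5 and GW2580 5, also not called.

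Cd81 (NCBI gene 12520, chromosome 7 from 143052750 to 143067930) read 2567, 2985, 2731, 3223 and 1391 CPM in Vehicle 1 to 5 and 1636, 2896, 4184, 1160 and 2057 CPM in GW2580 1 to 5. The GW2580 values reached both above and below all vehicle values. The log2 fold change was -0.11 ± 0.45 (SE, unadjusted p = 0.806 by edgeR, exact permutation p = 0.611). On the TPM scale its mean was higher with GW2580, as were those of Cd37, Cd82 and Tspan4, which were lower in CPM, so no direction is given for these 4 genes.

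Cd53 (NCBI gene 12508, chromosome 3 from 106758861 to 106790149) read 903, 852, 1006, 965 and 345 CPM in Vehicle 1 to 5. With GW2580 it read 742, 1040, 1414, 365 and 701 CPM. Both GW2580 2 and GW2580 3 were above every vehicle library, and the log2 fold change was 0.07 ± 0.43 (SE, unadjusted p = 0.881 by edgeR, exact permutation p = 0.952). Cd37 (NCBI gene 12493, chromosome 7 from 45233632 to 45239340) ranged from 408 to 842 CPM with vehicle, with a median of 584, and from 242 to 878 CPM with GW2580, with a median of 448. Its log2 fold change was -0.21 ± 0.41 (SE, unadjusted p = 0.617 by edgeR).

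Cd82 (NCBI gene 12521, chromosome 2 from 93419102 to 93462950) lay between 190 and 225 CPM in Vehicle 1 to 4, at 379 CPM in Vehicle 5, and between 112 and 370 CPM with GW2580. Its log2 fold change was -0.24 ± 0.39 (SE, unadjusted p = 0.548 by edgeR). Tspan4 (NCBI gene 64540, chromosome 7 from 141475236 to 141493427) lay between 341 and 413 CPM in Vehicle 1 to 4, at 119 CPM in Vehicle 5, and between 90.4 and 412 CPM with GW2580, with a log2 fold change of -0.33 ± 0.46 (SE, unadjusted p = 0.482 by edgeR). Cd151 (NCBI gene 12476, chromosome 7 from 141467362 to 141471481) had 114 to 441 fragments per library, 8.10 to 12.9 CPM with vehicle and 5.40 to 24.5 CPM with GW2580. Its log2 fold change was 0.20 ± 0.37 (SE, unadjusted p = 0.593 by edgeR), and GW2580 3 alone lay above the vehicle range.

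The members' levels varied with the library within each group. In Vehicle 5, 6 members were at their lowest CPM of the vehicle group (Cd9, Cd37, Cd53, Cd63, Cd81 and Tspan4) and the other 4 at their highest (Cd82, Cd151, Tspan3 and Tspan14). Within the GW2580 group, 9 members were at their lowest CPM in GW2580 4 and 8 at their highest in GW2580 3. These libraries had the largest and the smallest TMM factor, 1.61 and 0.691. On the TPM scale, which uses no such factor, GW2580 4 was lowest for 3 members, GW2580 5 for 7, and GW2580 3 highest for 7.

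Shares of the members' summed TPM do not depend on how a library is scaled, and they are given as a description. Cd63 made up 17.4, 16.5, 14.4, 12.4 and 13.3% in Vehicle 1 to 5 and 5.47, 8.38, 5.00, 4.21 and 12.8% in GW2580 1 to 5. The means were 14.8 ± 2.08% and 7.17 ± 3.51% (SD, n = 5), and 4 of 5 GW2580 libraries lay below every vehicle library, with GW2580 5 within their range. Without Vehicle 5 and GW2580 5 the means were 15.2% and 5.77%.

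Cd81 made up 35.7 ± 1.90% with vehicle and 42.2 ± 4.08% with GW2580, Cd53 6.02 ± 1.05% and 8.25 ± 1.30%, and Tspan14 1.78 ± 0.799% and 3.94 ± 1.74%. For Cd81 and Cd53, 4 of 5 GW2580 libraries lay above all vehicle libraries, and for Tspan14 3 of 5. The shares within a library add up to the whole, so these higher shares are not independent of the lower share of Cd63. By CPM the log2 fold changes of Cd81 and Cd53 were -0.11 and 0.07. Cd9 held 26.1 ± 5.83% with vehicle, with Vehicle 5 at 15.7%, and 24.8 ± 4.41% with GW2580. Tspan3 made up 16.1% in Vehicle 5 and 1.92 to 3.99% in the other 9 libraries.

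**Figure D2:**
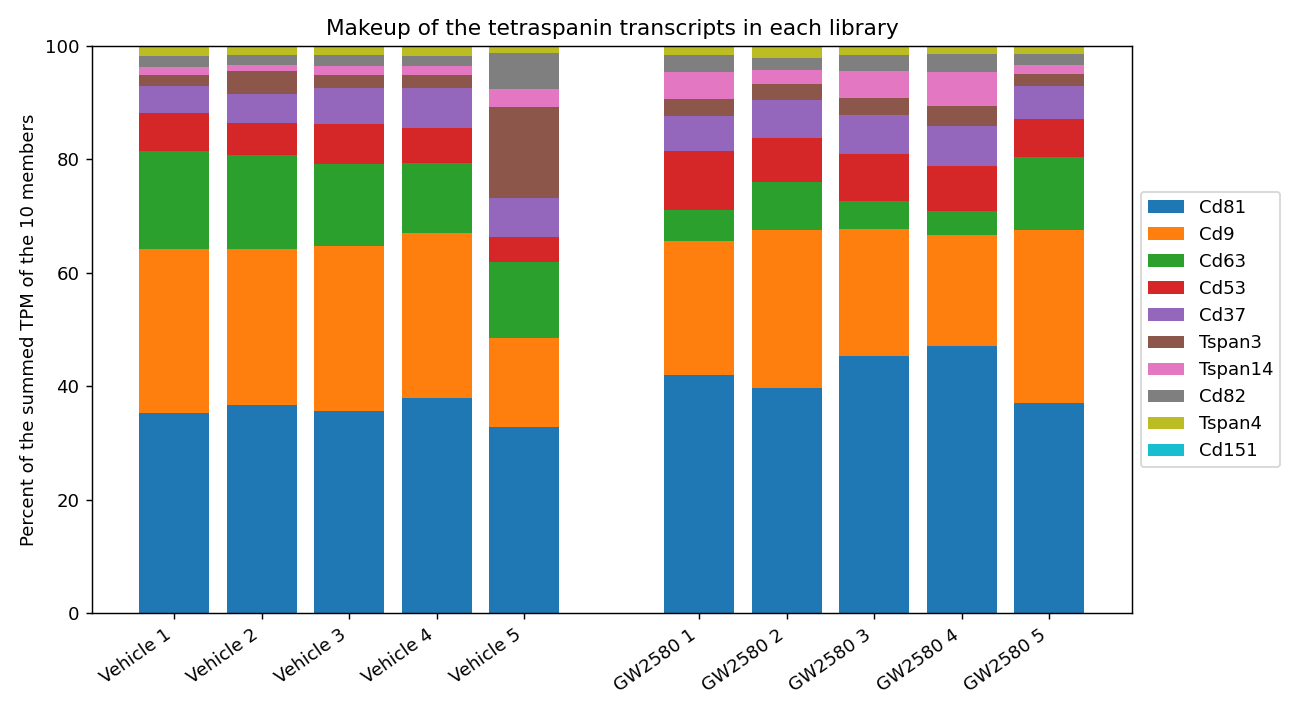
Share of each member (colour) in the summed TPM of the 10 members, in percent, for each of the 10 libraries. The green band of Cd63 takes 12.4 to 17.4% of each vehicle bar and 4.21 to 8.38% of GW2580 1 to 4, with 12.8% in GW2580 5, and Vehicle 5 has a wide band of Tspan3 (16.1%).

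The TPM of Cd63 over that of Cd9 was 0.429 to 0.849 with vehicle (mean 0.594 ± 0.160, SD, n = 5) and 0.215 to 0.417 with GW2580 (mean 0.278 ± 0.0851). These ranges did not overlap, but the gap was narrow, from 0.417 in GW2580 5 to 0.429 in Vehicle 4. The highest ratio, 0.849, was in Vehicle 5, where Cd9 was low. Cd63 over Cd81 was 0.416 ± 0.0615 with vehicle and 0.177 ± 0.105 with GW2580, with GW2580 5 at 0.345 inside the vehicle range of 0.327 to 0.492. The pairs were picked after the members' levels had been seen, so no test is given. Cd37 over Cd53, the leukocyte pair, was 1.04 ± 0.327 and 0.800 ± 0.120, and Cd81 over Cd9 was 1.44 ± 0.373 and 1.77 ± 0.474, with overlapping ranges. Tspan14 over Cd81 was 0.0508 ± 0.0261 and 0.0908 ± 0.0341, and Tspan14 over Cd63 was 0.125 ± 0.0667 and 0.732 ± 0.510, also overlapping. No examined pair other than Cd63 over Cd9 had ranges apart, and the share of such pairs among all genes was not computed.

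The other 21 tetraspanin genes that were tested were mostly low. Tspan31, first found amplified in sarcomas, Tspan7, a tetraspanin of neurons, Tspan13, the uroplakin Upk1b and Tspan33, a partner of ADAM10, had the highest mean TPM, from 276 for Tspan31 to 89.9 for Tspan33, and none of these 5 was called. Of the 21 genes, 16 had a log2 fold change below 0 and 5 above, with a median of -0.25, and 4 were called, all lower with GW2580. Over all 28419 genes tested, 14669 had a log2 fold change below 0, 10.7% were called and 6.7% were called lower. Only 1 gene of the 21 was called without Vehicle 5.

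Tspan1, known from epithelia, read 1.44 to 3.71 CPM with vehicle and 0.462 to 1.83 CPM with GW2580, with 4 of 5 GW2580 libraries below all vehicle libraries (log2 fold change -1.51 ± 0.46 (SE), unadjusted p = 0.00558 by edgeR). It had 9 to 66 fragments per library and lost the call in female mice alone (-1.14). Tspan17, a partner of ADAM10, was at 33.5 CPM in Vehicle 5 and 23.4 in Vehicle 2, at 4.33 to 8.44 CPM in the other vehicle libraries, and at 3.13 to 6.77 CPM with GW2580 (log2 fold change -1.54, unadjusted p = 0.0124). Rom1, a photoreceptor gene, read 44.4 CPM in Vehicle 5, 10.7 in Vehicle 2 and 1.95 to 2.59 in the other vehicle libraries (log2 fold change -2.27, unadjusted p = 0.0116). Tspan6 was at 9.94 and 8.26 CPM in the same 2 libraries, with a log2 fold change of -1.13 (unadjusted p = 0.0490). For these 3 genes, as for Tspan3, the highest values stood in the libraries highest in oligodendrocyte and astrocyte markers. They were higher in Vehicle 5 than in Vehicle 2, as were astrocyte markers (938 against 315 CPM). Oligodendrocyte markers were higher in Vehicle 2 (17906 against 4358 CPM), and the part of either cell type in these values was not tested. With the same marker covariate the log2 fold changes were -0.64 for Tspan17, -0.45 for Rom1 and -0.44 for Tspan6, none called. Without Vehicle 2 and Vehicle 5 they were -0.21 for Tspan17, 0.13 for Rom1 and -0.05 for Tspan6, none called. These 2 libraries held the highest values of the 3 genes, so leaving them out raises the log2 fold change by construction. Leaving out Vehicle 5 alone also ended the calls of Tspan17 (-0.99), Rom1 (-0.78) and Tspan6 (-0.73), and that of Tspan6 was further lost without Vehicle 2 or GW2580 1, 2 or 3.

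**Figure D3:**
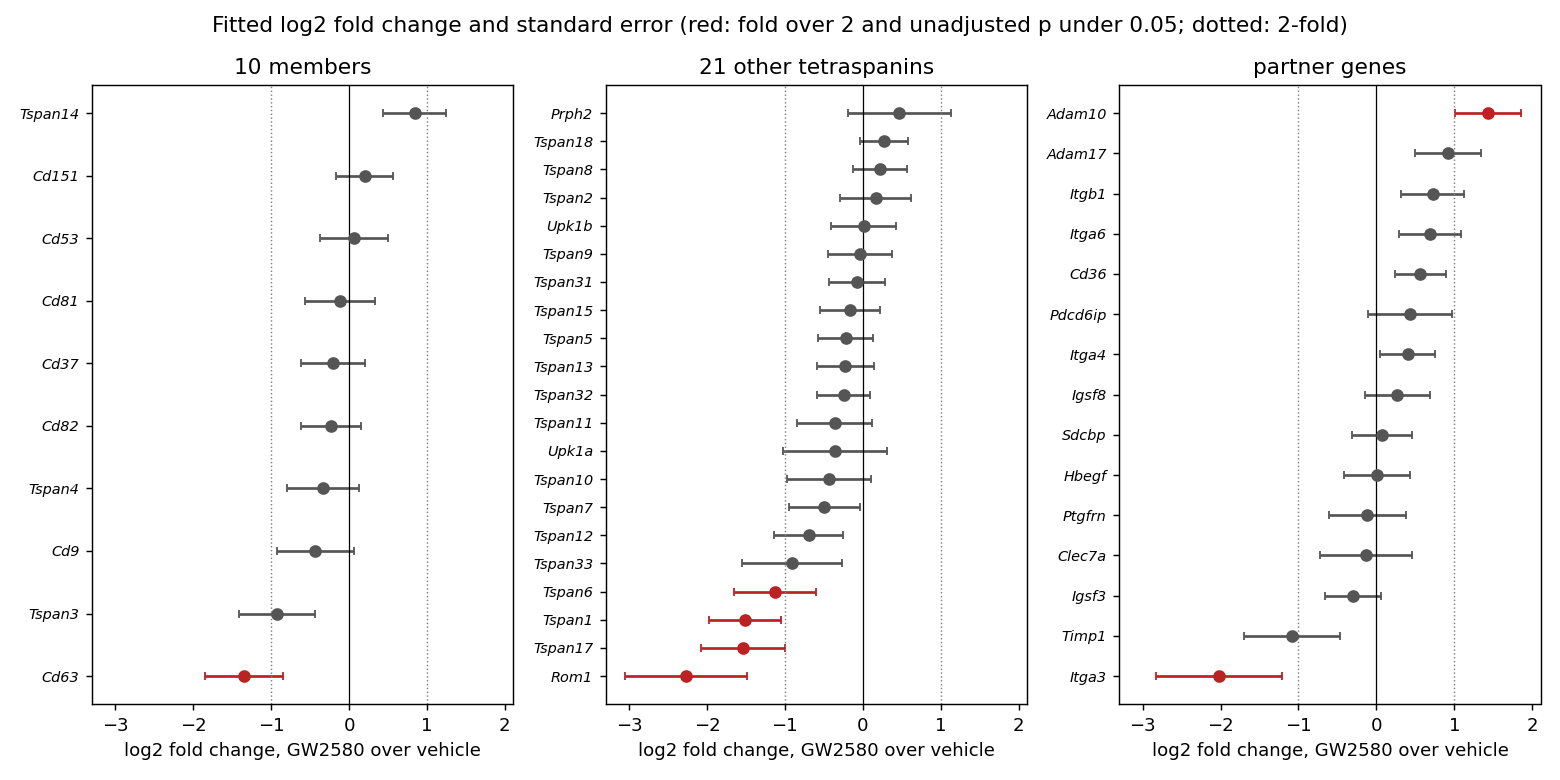
Fitted log2 fold change (horizontal axis, GW2580 over vehicle) with its standard error for the 10 members, the 21 other tetraspanins tested and the partner genes reported singly, with dotted lines at a 2-fold change and called genes in red. Cd63 is the called member at -1.34, Tspan14 is highest of the members at 0.84, and Adam10 is the called partner above 0 at 1.44.

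Of 16 genes whose proteins bind tetraspanins or load vesicles with them, 1 was called higher and 2 lower, with a median log2 fold change of 0.17. The shares over all genes tested were 4.01% called higher and 6.7% called lower. Adam10, the protease that cuts Notch and many surface proteins and that TSPAN14 and its relatives carry, read 65.5, 54.3, 65.0, 58.1 and 82.1 CPM in Vehicle 1 to 5. With GW2580 it read 235, 92.1, 323, 169 and 61.9 CPM, above every vehicle library in 4 of 5. Its log2 fold change was 1.44 ± 0.42 (SE), 2.71-fold (unadjusted p = 0.00439 and adjusted p = 0.280 by edgeR, exact permutation p = 0.0317). It stayed called without any single library and lost the call in female mice alone (1.45, unadjusted p = 0.0563) and with the ribosomal protein covariate (0.83, unadjusted p = 0.0792). The same 4 GW2580 libraries, 1 to 4, were above every vehicle library for Tspan14. This pattern was not particular to the pair. Adam17, another protease of the list, read 185, 88.1, 272, 135 and 57.5 CPM in GW2580 1 to 5, the same order as Adam10. It lay above every vehicle library in 3 of 5, with a log2 fold change of 0.92, not called (unadjusted p = 0.0465 by edgeR). The 6 tetraspanins of the TspanC8 group, all known to bind ADAM10 (Tspan5, Tspan10, Tspan14, Tspan15, Tspan17 and Tspan33), had 1 log2 fold change above 0, that of Tspan14, and 5 below, of which Tspan17 was called.

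The partners of highest TPM were Sdcbp, Igsf8 and Itgb1, and none was called. Sdcbp (syntenin), an adaptor that binds CD63 in vesicle formation, was at 375 ± 86.0 CPM with vehicle and 394 ± 197 with GW2580 (SD, n = 5), with a log2 fold change of 0.07 ± 0.39 (SE). Igsf8, the partner of CD9 and CD81, was at 99.6 ± 43.5 and 120 ± 72.7 CPM (log2 fold change 0.27 ± 0.42). Itgb1, the integrin beta chain bound by CD151 and CD9, was at 135 ± 62.4 and 222 ± 109 CPM (log2 fold change 0.72 ± 0.40, unadjusted p = 0.0951 by edgeR). Of the 2 genes called lower, Itga3 is the integrin chain bound by CD151. It read 102 CPM in Vehicle 5 and at most 9.80 CPM in any other library, and its exact permutation p was 0.437. Without Vehicle 5 its log2 fold change was -0.03, not called.

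**Figure D4:**
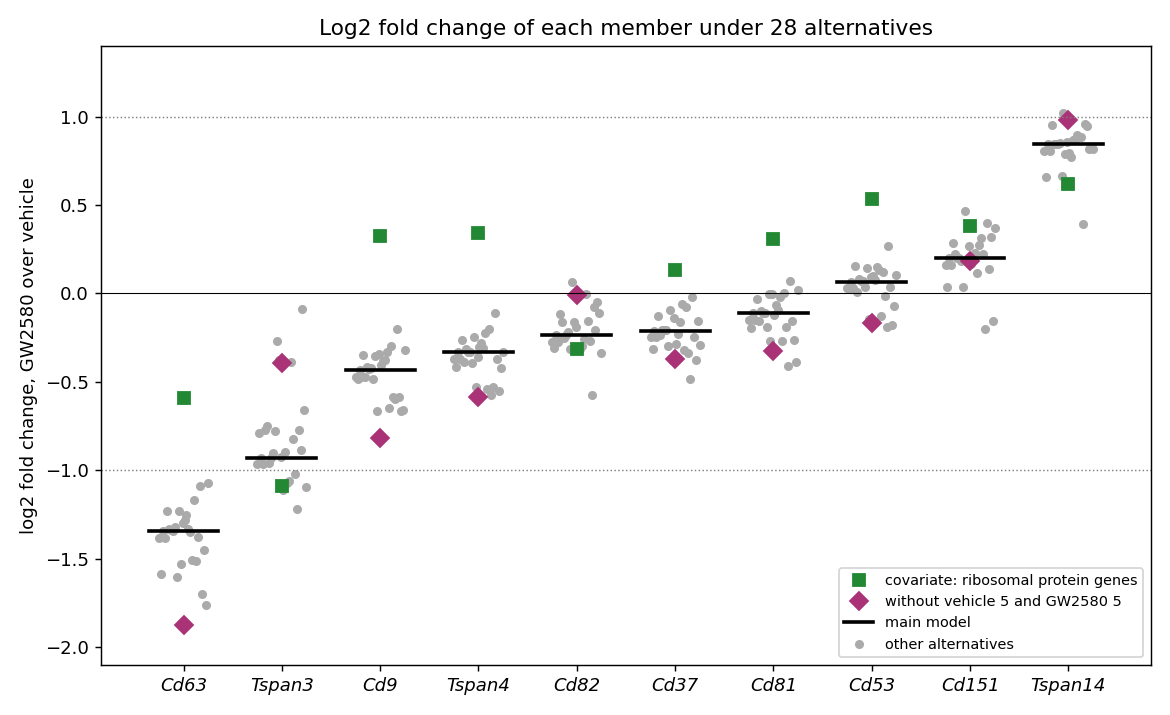
Log2 fold change of each member (vertical axis, GW2580 over vehicle) in the main model (black bar) and under 28 other models or sets of libraries (points), with the ribosomal protein covariate (green square) and the model without Vehicle 5 and GW2580 5 (purple diamond) set apart. Cd63 stays below 0 in all 28, from -1.88 to -0.59, Tspan14 stays above 0, from 0.39 to 1.02, and Cd53 lies on both sides of 0.

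Of the 28 alternatives, Cd63 was called in 26, and the exceptions were female mice alone and the ribosomal protein covariate. Tspan3 was below 0 in all 28 and Tspan14 above 0 in all 28. Each of the other 7 members lay on the other side of 0 in at least 1 alternative.

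Members lie on 7 chromosomes, and 4 of the 10 are on chromosome 7. Cd151 and Tspan4 are neighbours there, with 3754 bases between them, yet Tspan4 was over 9 times as high per length in both groups. Counting was without strand, and fragments on exons of more than 1 gene stayed unassigned (0.486 to 0.964% of records per library). Fragments of an overlapping gene that fall on a member's exons alone cannot be told apart from the member's. Cd9 overlaps the long noncoding genes Gm28809 and Gm26728 (at most 340 and 275 fragments in any library, against at least 8034 for Cd9). Tspan4 overlaps Chid1, which had up to 993, against at least 1910 for Tspan4. Cd151 overlaps Gm10575 (at most 42, against at least 114 for Cd151). Cd81 overlaps R74862 (at most 282), and Cd82 overlaps Gm10804 and Mir7001 (at most 191 and 5). The pseudogenes Cd9-ps and Cd63-ps had at most 10 and 78 fragments, against at least 1876 for Cd63, so a split of reads between copies could touch the members' counts only where reads were not unique.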

How the data were processed

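Each of the 10 RNA-seq libraries (5 per group) came with gene counts. After trimming, the authors mapped reads to GRCm38 with STAR, assigned unique alignments to RefSeq exons by featureCounts (1.6.3 per the file headers) without strand, and deposited the raw counts. They also deposited exon lengths and, per library, the counts left unassigned, which stayed out of library sizes and tests: 38.4 to 60.1% of records lay on no annotated exon.

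From the counts, genes over 1 CPM in at least 3 libraries were kept, scaled with TMM and tested for treatment alone (quasi-likelihood F test of edgeR 4.0.16, R 4.3.3, tested on simulated data). SE is the log2 fold change over the root of F, without sign. TPM used the deposited exon lengths. Exact permutation tests of log2 CPM (prior count 2) were two-sided, with a smallest p of 0.00794 (numpy 2.4.6). Figures were drawn with matplotlib 3.10.9. Alternatives were DESeq2 1.42.0, limma-voom (limma 3.58.1), edgeR's exact test, other scalings, filters and prior counts (0.5), covariates, removal of the trend with gene length, each sex alone, thresholds, a replicate block and left-out libraries. Groups, sex and numbers came from the labels, and each library is a separate mouse. Values from counts carry counting error as well as the spread between mice, and reads counted without molecular identifiers may be copies of 1 molecule. The members, gene lists and tests were chosen with earlier results of these data known. The genes named beside the members are the 5 other tetraspanins and 3 partners of highest mean TPM, every called gene of both lists and the top gene of marker lists, and some of these genes are counted but not reported singly here. Adam17 was added for comparison with Adam10.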

Additional observations from a re-analysis of the deposited data

Results flagged for a closer look

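In each group of 5 libraries, the lowest or highest library was compared with the rest by Dixon's gap test at 95%, over 48 groups (the named tetraspanins and partners in each treatment). It marked 12, and 10 of the 12 were in Vehicle 5. Groups of different genes share the same libraries, and some of the genes were named because they were called, so this count is a description. In that library Cd9 at 523 CPM, Cd53 at 345 CPM and Tspan4 at 119 CPM lay far below the other vehicle libraries, and Cd82 at 379 CPM lay far above. Of the other tetraspanins, Tspan33 at 370 CPM and Rom1 at 44.4 CPM stood far above the rest in Vehicle 5, and of the partners Itga3 at 102 CPM, Sdcbp at 525 CPM, Igsf8 at 176 CPM and Itgb1 at 245 CPM. Tspan14 stood apart in GW2580 3 at 863 CPM, and Tspan1 in GW2580 5 at 1.83 CPM. Vehicle 5 also had the lowest summed microglia markers of all libraries, at 12090 CPM, and the part of this in the marked values was not tested.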

How the results depend on the processing

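The main model called 1 member, 3046 of the 28419 genes tested, 4 other tetraspanins and 3 partners. With an adjusted p under 0.05 as the rule all 4 counts were 0. Female mice alone gave 0 members, 794 of 25656 genes tested, 1 other tetraspanin and 1 partner, and male mice alone 4621 of 24019 genes. The ribosomal protein covariate, chosen after seeing the data, left 0 members. With the share on no exon as a covariate, 2 members (1 higher), 1730 genes and 1 other tetraspanin were called. No filter beyond 1 count gave 4802 genes, but of 44086 tested, and leaving out Vehicle 5 and GW2580 5 gave 6057 of 27215. Partners fell to 1 with DESeq2, limma-voom and upper quartile factors, and other tetraspanins to 1 with limma-voom and without Vehicle 2 and Vehicle 5. The covariate of astrocyte, oligodendrocyte and neuron markers left 1 of each list. Leaving out each library in turn gave 1 to 2 members (1 to 2 lower), 1 to 5 other tetraspanins and 1 to 4 partners (1 without GW2580 1 or GW2580 3). Genes called then ran from 1684 of 27723 tested (without GW2580 1) to 4848 of 27585 (without GW2580 5). Scaling by library size alone put the median gene at 0.23, from -0.03, and the split of calls at 2123 higher and 875 lower, from 1141 and 1905.

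Deviations of same-numbered libraries from their group means correlated at 0.08, 0.13, -0.06, -0.07 and -0.39. GW2580 5 was the best match of each of Vehicle 1 to 4, so these values cannot show whether replicate numbers pair the mice. With a replicate block Cd63 was at -1.60, still the 1 member called, and 2554 genes, 1 other tetraspanin and 1 partner were called.

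Of the uncalled members, 7 changed sign somewhere. With the ribosomal covariate Cd9 was at 0.32, Cd37 at 0.13, Cd81 at 0.31 and Tspan4 at 0.34. Cd53 was at -0.15 with the glia and neuron covariate, -0.16 without Vehicle 5 and GW2580 5, -0.18 without Vehicle 2 and Vehicle 5 and -0.073 in male mice. Cd81 was at 0.018 in female mice, Cd82 at 0.063 with the no-exon covariate and Cd151 at -0.16 in male mice. Leaving out each library gave -0.19 to 0.27 for Cd53, -0.41 to 0.069 for Cd81 and -0.20 to 0.40 for Cd151. The cause of these changes was not tested. At the lowest depth, 12550418 fragments, a gene at 1 CPM has few counts, so genes such as Tspan1 carry a large counting error.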
